A study of Mus musculus with 56 samples.

Results

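Hepcidin, its BMP-SMAD control pathway and the proteins that carry iron into and out of liver cells were followed through 10 genes, chosen by symbol: Hamp, Hamp2, Bmp6, Id1, Smad6, Smad7, Trf, Tfr2, Tfrc and Slc40a1. All 10 were found among the 45513 genes of the count tables by their Ensembl identifiers in GENCODE vM21 (GRCm38), and all 10 passed the filter on low counts that left 14314 genes for testing. The data are liver mRNA counts of 56 mice in 7 groups of 8. All animals were female APOE*3Leiden.CETP mice, a hyperlipidaemia model with transgenes for APOE*3-Leiden with APOC1 and for CETP, all human, CETP under its native promoter. They entered the study at 9 to 14 weeks of age and ate a Western-type diet with 15% cacao butter and 0.15% cholesterol.

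Treatment lasted 16 weeks. Control mice received the vehicle, 5% carboxymethyl cellulose, by gavage. Imatinib was given at 150 mg/kg in 2 gavages a day, nilotinib at 10 or 30 mg/kg and ponatinib at 3 or 10 mg/kg in 1 gavage a day plus 1 of vehicle; these drugs are inhibitors of the BCR-ABL1 tyrosine kinase. The last group drank L-NAME, an inhibitor of nitric oxide synthase, at 0.12 to 0.2% of the drinking water and received the vehicle by gavage. This group is in the sample labels, but the paper's study design does not describe it. None of the mice had leukemia, and no untransgenic mice or normal diet were included, so every difference given here was measured on this genotype and diet.

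Hepcidin is a peptide hormone that hepatocytes secrete. It binds ferroportin, the iron exporter encoded by Slc40a1, and causes its degradation, which lowers the release of iron from macrophages, hepatocytes and the gut. Its transcription is raised by BMP6 and BMP2 from liver endothelium through BMP receptors, hemojuvelin and SMAD1/5/8, with transferrin receptor 2 and HFE as sensors of iron-loaded transferrin, and it is also raised by interleukin-6 through STAT3. Mice carry a pair of neighbouring hepcidin genes. Hamp encodes the hormone, and the peptide of Hamp2 is thought not to act on iron.

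Hamp lies on the minus strand of chr7:30942368-30944032 and Hamp2 on the minus strand of chr7:30922372-30924681 (GRCm38). The stretch of each promoter around the BMP response element core is printed here because a base of the core differs between the genes. The sequences are RefSeq's (GRCm38.p6), written 5′ to 3′ on the minus strand. Capitals mark the BMP response element core of Hamp or the letters at that place in Hamp2, followed by the match to TTCNNNGAA, the form of a STAT site. The Hamp stretch is chr7:30944078-30944196, upstream of the annotated start. That of Hamp2 is chr7:30924227-30924345, upstream of the RefSeq start and inside an intron of 1 longer GENCODE transcript.
Hamp: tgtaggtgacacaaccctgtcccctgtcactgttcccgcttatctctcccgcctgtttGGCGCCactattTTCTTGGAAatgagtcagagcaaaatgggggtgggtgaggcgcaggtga
Hamp2: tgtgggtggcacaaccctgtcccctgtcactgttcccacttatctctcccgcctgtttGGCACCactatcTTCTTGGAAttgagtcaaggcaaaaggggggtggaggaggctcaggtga

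Over these 119 bases, 107 (89.9%) were equal, and 12 differed. Counted from 1 at the 5′ end of the stretch, with the Hamp base first, 1 of the differences lay in the BMP response element core, G62A. The STAT-type match was the same in both. On both strands of the 300-base promoter windows of RefSeq, 250 bases before to 50 after the start, GGCGCC was found in 11.9% of 32851 promoters and TTCNNNGAA in 8.3%. Of the 6 members with promoter entries, GGCGCC matched in Hamp, at -109 from the start, and in 1 of the 2 entries of Tfrc. The palindrome GTCTAGAC, a SMAD site that overlaps no other motif searched, matched in Smad6, at -4 from the start, and in 0.213% of all promoters. CAGACA, another SMAD-type motif, matched in Hamp, Hamp2 and 21% of all promoters. A match here is a description of letters and not of binding.

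Between 5342379 and 17996732 reads were counted on genes in 55 mice, with a median over all mice of 7570238. L-NAME mouse 10 stood apart with 97473341 reads, 16.8% of its uniquely aligned reads outside annotated genes and the lowest Hamp level of its group, so the L-NAME values of the hepcidin genes, Id1 and Trf are also given without it. The share of reads outside genes was 7.97% ± 0.42 in control mice and between 8.53% ± 0.61 and 11% ± 1.99 in the treated groups (means ± SD, n = 8), highest with ponatinib 10 mg/kg and L-NAME; the reads outside genes are part of no level. The labels name no sequencing batch. The labelled tissue matched its markers: 6 hepatocyte genes summed to between 61662 and 142610 CPM (the read count of a gene scaled to the reads on genes of that mouse) in every mouse. Single hepatocyte genes nevertheless moved with ponatinib 10 mg/kg, 3 of the 6 called higher and 1 lower (calls are defined below). On the log2 scale Apoa1 moved by 0.85, Ttr by 0.73, Serpina1b by 0.56 and Cps1 by -0.86. The relation of these shifts to the values of the 10 genes was not tested. Levels are CPM after TMM normalisation, differences are log2 fold changes of the first group minus the second, and a gene is called at a Benjamini-Hochberg adjusted p below 0.05 over all 14314 genes in edgeR's quasi-likelihood test of the 56 mice. The 6 comparisons with control share the same 8 control mice.

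Across the 7 groups, 4 of the 10 genes differed somewhere: Trf (adjusted p = 3.31e-06), Hamp2 (0.0123), Hamp (0.0167) and Tfr2 (0.0328). Of all genes tested, 18.7% were called in the same test. Both hepcidin genes and transferrin were higher with ponatinib 10 mg/kg, transferrin was higher with nilotinib 30 mg/kg and L-NAME, and no member was called lower in any comparison with control. Per kilobase of exon, the control levels ran from 540 CPM per kilobase for Trf through 268 for Hamp2, 222 for Hamp and 125 for Tfr2 to 21.5 for Slc40a1. The remaining genes were low, at 6.48 CPM per kilobase for Id1, 5.59 for Tfrc, 3.27 for Smad6, 2.89 for Smad7 and 0.597 for Bmp6.

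**Figure D1:**
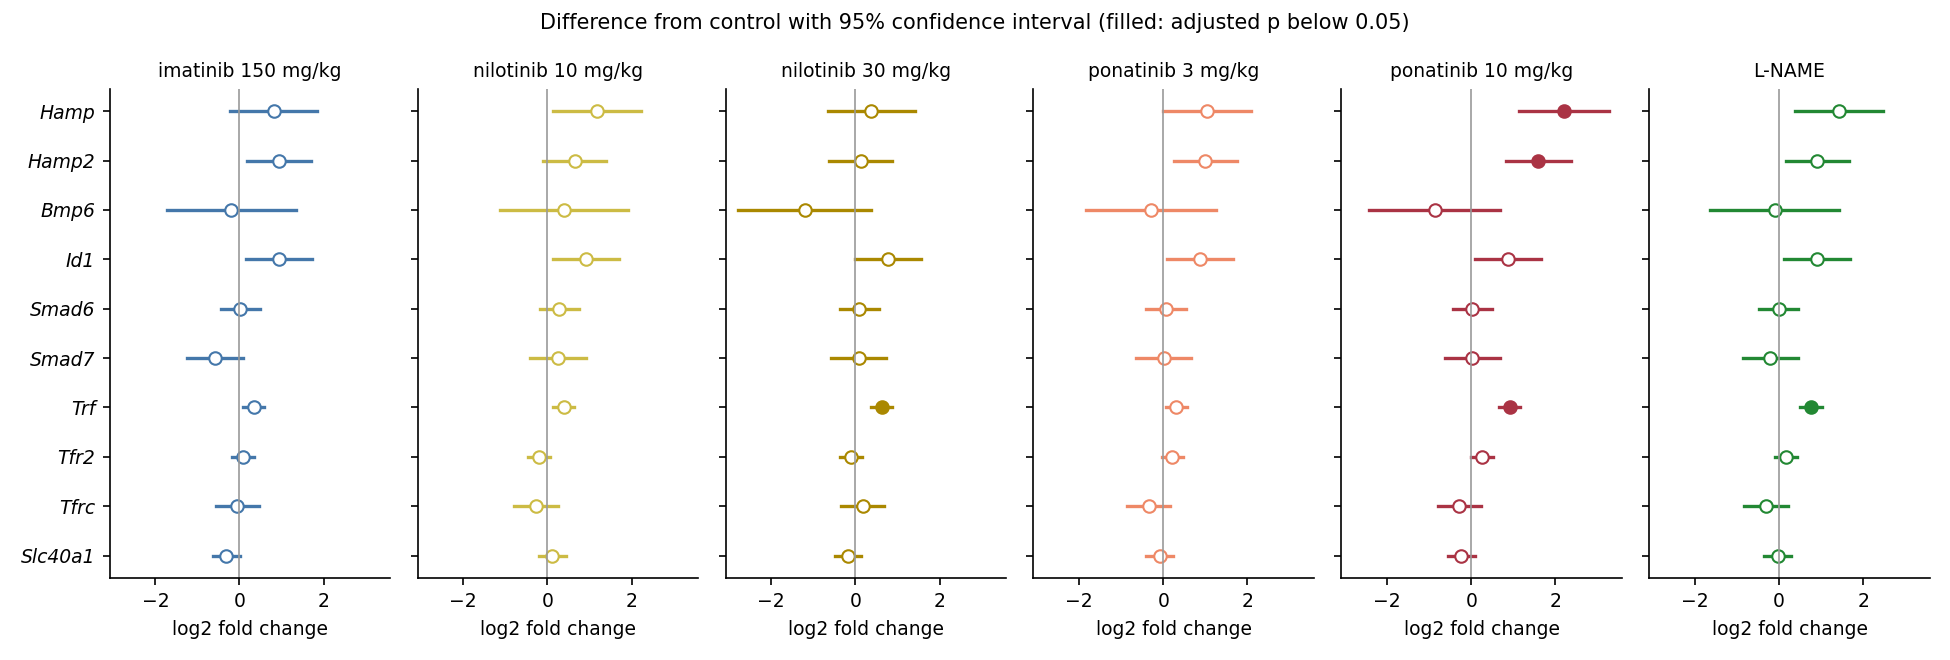
Log2 fold change of each gene against the 8 control mice (points) with its 95% confidence interval (lines), 1 panel per treated group; filled points have an adjusted p below 0.05. Filled points appear for Hamp, Hamp2 and Trf with ponatinib 10 mg/kg and for Trf with nilotinib 30 mg/kg and L-NAME, while the widest intervals belong to Bmp6.

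Hamp, the hormone gene, was the most variable of the well-expressed members. In control mice it ranged from 7.41 to 188 CPM with a median of 69.6. With ponatinib 10 mg/kg it ranged from 26.4 to 748 CPM with a median of 414. The groups overlapped: 6 of the 8 ponatinib mice lay above the highest control mouse, and mice 18 (164 CPM) and 35 (26.4 CPM) lay within the control range. The mean was 419 ± 256 CPM against 91.0 ± 61.1 in control mice (SD, n = 8), a log2 fold change of 2.20 ± 0.54 (SE, adjusted p = 0.00334). The 95% confidence interval ran from 1.13 to 3.28, and the call held in all 16 fits that left out 1 mouse of either group, with log2 fold changes from 2.02 to 2.44.

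Hamp in the other groups was not called. With L-NAME it ranged from 37.1 to 474 CPM with a median of 236, and 4 of 8 mice lay above the highest control mouse (log2 fold change 1.42 ± 0.53, adjusted p = 0.0660). Without L-NAME mouse 10 the difference was 1.58 (adjusted p = 0.0418) and without control mouse 46 it was 1.65 (adjusted p = 0.0451), so the call turned on single mice. With nilotinib 10 mg/kg it ranged from 64.6 to 659 CPM with a median of 150, the highest value being that of mouse 9. The difference there was 1.18 ± 0.52 (adjusted p = 0.268), and 0.64 without mouse 9. With ponatinib 3 mg/kg the range was 40.7 to 477 CPM (1.04 ± 0.52, adjusted p = 0.501). Imatinib mice ranged from 45.0 to 359 CPM (0.81 ± 0.52, adjusted p = 0.362), and nilotinib 30 mg/kg mice from 13.8 to 375 (0.38 ± 0.52, adjusted p = 0.787, and -0.16 without mouse 15, the highest). In all 6 treated groups the median exceeded that of control mice. Groups next to each other in the order of mean levels were not told apart for Hamp or any other member. Of the 60 such pairs over the 10 genes, 0 had an adjusted p below 0.05 (lowest 0.270). Neighbours in an order taken from the same means are the closest groups, so this count says nothing about groups farther apart.

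Hamp2, the neighbouring paralog, ranged from 31.1 to 296 CPM in control mice with a median of 162. With ponatinib 10 mg/kg it ranged from 53.5 to 921 CPM with a median of 439, and 6 of 8 mice again lay above every control mouse. The log2 fold change was 1.59 ± 0.38 (adjusted p = 0.00300; means 470.2 ± 272 and 156 ± 88.1), from 1.38 to 1.79 in the 16 fits without 1 mouse, all called. With ponatinib 3 mg/kg (177 to 552 CPM) and imatinib (190 to 456 CPM) all 8 mice lay above the control median, with differences of 1.00 ± 0.38 (adjusted p = 0.322) and 0.94 ± 0.38 (adjusted p = 0.104) that were not called. L-NAME (0.91 ± 0.38, adjusted p = 0.111; 1.03 without mouse 10, adjusted p = 0.0755), nilotinib 10 mg/kg (0.65 ± 0.38, adjusted p = 0.458) and nilotinib 30 mg/kg (0.13 ± 0.38, adjusted p = 0.922) were not called either.

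**Figure D2:**
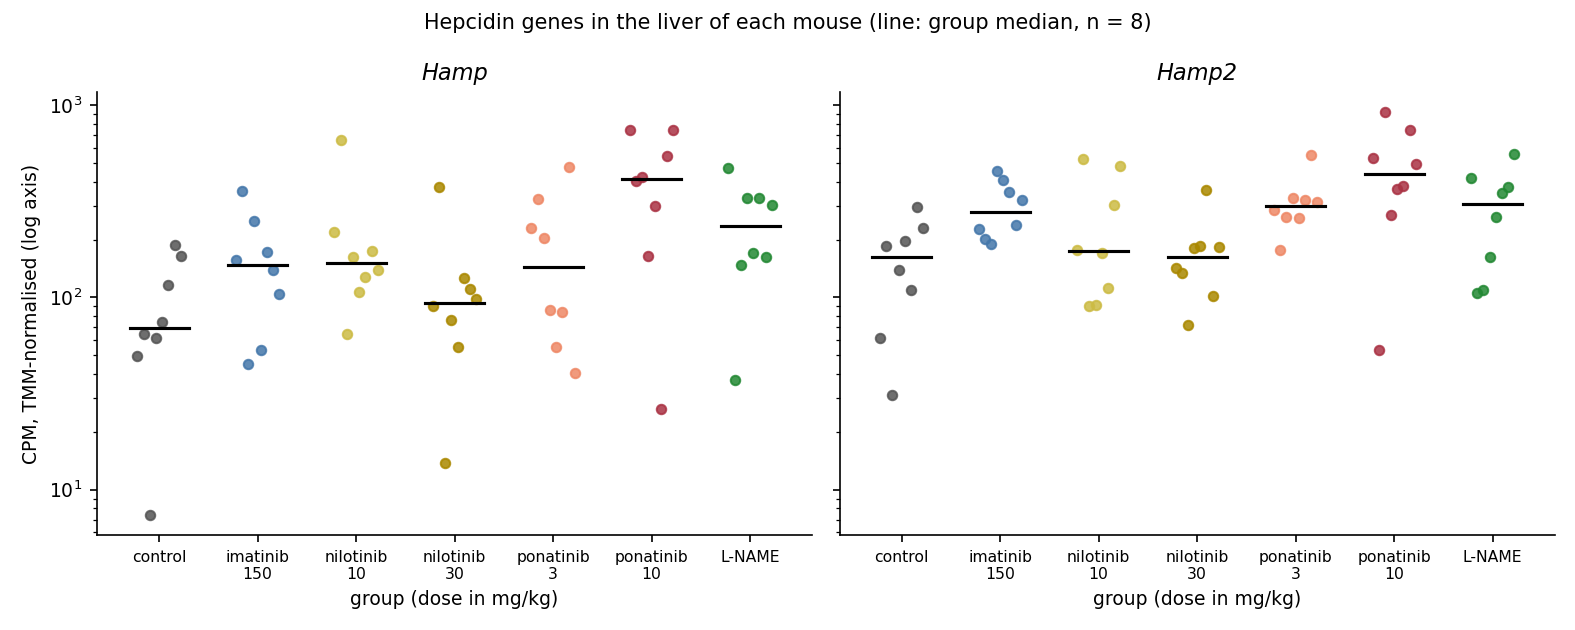
CPM of Hamp (left) and Hamp2 (right) in each of the 56 mice on a log axis, by group; points are mice and lines are group medians (n = 8). Ponatinib 10 mg/kg has the highest median of both genes, 414 and 439 CPM, with 1 low mouse in each panel: mouse 35 for Hamp and mouse 8 for Hamp2.

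Of the Hamp transcript, 16.6% of 50-base windows and 3.87% of 75-base windows occur unchanged in Hamp2, and a read with several alignments was assigned to neither gene. Summed as 1 gene, Hamp and Hamp2 were higher by 1.85 ± 0.37 with ponatinib 10 mg/kg (adjusted p = 0.000396) and by 1.12 ± 0.36 with L-NAME (adjusted p = 0.0295). Within ponatinib 10 mg/kg the genes did not order the mice alike. Mouse 35 had 26.4 CPM of Hamp but 382 of Hamp2, and mouse 8 had 404 CPM of Hamp but 53.5 of Hamp2.

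Library features moved with these results. With ponatinib 10 mg/kg the median log2 fold change was 0.40 over the 372 genes with at most 500 exon bases and -0.13 over those above 8000, and Hamp has 410 exon bases and Hamp2 583. With each mouse's trend on exon length removed, Hamp (1.93, adjusted p = 0.00968) and Hamp2 (1.35, adjusted p = 0.00951) stayed called. With the share of reads outside genes as a covariate Hamp was at 2.20 (adjusted p = 0.0466), but Hamp2 was at 0.93 and no longer called (adjusted p = 0.304).

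Bmp6, the endothelial ligand that raises hepcidin when iron is high, was close to the limit of detection. Its level ranged from 0 to 4.31 CPM in control mice with a median of 2.36, and up to 7.29 CPM in the highest mouse of all, given nilotinib 10 mg/kg. A total of 8 mice in 5 groups had no read. Log2 fold changes against control ran from -1.21 ± 0.79 with nilotinib 30 mg/kg to 0.40 ± 0.76 with nilotinib 10 mg/kg, with no call (adjusted p = 0.454 and 0.896). The 95% confidence intervals of the 6 comparisons reached from -2.78 to 1.92, so neither a large fall nor a large rise was measurable at this depth. Some Bmp6 reads are also uncertain, since 224 of its exon bases overlap Txndc5 on the opposite strand and the strand setting of the counting is not given in the sources used here.

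Id1, a direct BMP-SMAD target that encodes an inhibitor of basic helix-loop-helix factors, was at 2.55 to 13.9 CPM in control mice with a median of 7.93. Its median was 13.8 CPM with L-NAME (9.12 to 21.9), 14.4 with imatinib (6.90 to 25.2), 13.3 with nilotinib 30 mg/kg (7.15 to 19.6) and 13.9 with ponatinib 10 mg/kg (0.570 to 29.4). The medians of all treated groups lay above that of control mice, and all 8 L-NAME mice did, but every group overlapped with control. Log2 fold changes lay between 0.78 ± 0.39 (nilotinib 30 mg/kg, adjusted p = 0.270) and 0.94 ± 0.39 (imatinib, adjusted p = 0.119), and none of the 6 was called. Without L-NAME mouse 10 the L-NAME difference was 0.97 (adjusted p = 0.125). The difference between ponatinib 10 and 3 mg/kg was 0.00 (95% confidence interval -0.78 to 0.78).

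Smad6 and Smad7 encode the inhibitory SMADs that BMP and TGF-beta signals induce and that close the feedback loop. Smad6 was at 5.25 to 12.9 CPM in control mice (median 11.4), its highest group mean was 12.8 CPM with nilotinib 10 mg/kg, and no group was called. The log2 fold change with ponatinib 10 mg/kg was 0.02 (95% confidence interval -0.44 to 0.49). Smad7 was at 6.87 to 19.4 CPM in control mice (median 13.5). The value farthest from control was that of imatinib, 4.46 to 12.5 CPM with all 8 mice below the control median, a difference of -0.58 ± 0.33 (adjusted p = 0.299). In the ponatinib 10 mg/kg group, where hepcidin was higher, Smad7 differed from control by 0.03 (95% confidence interval -0.63 to 0.69), and with L-NAME by -0.21 ± 0.33 (adjusted p = 0.790). Of Bmp6 and the 3 targets, 0 were called in any comparison with control, where 22% of all genes tested were called at least once. With only the compared groups in the fit, Id1 was called with L-NAME.

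Trf, which encodes transferrin, the iron carrier of plasma that hepatocytes secrete, gave the clearest group differences. Control mice ranged from 1304 to 2339 CPM with a median of 1753. With ponatinib 10 mg/kg the range was 1724 to 4235 CPM with a median of 3627, and 7 of 8 mice lay above every control mouse, mouse 18 being the exception. The mean of 3382 ± 769 CPM against 1792 ± 340.2 (SD, n = 8) is a log2 fold change of 0.92 ± 0.13 (adjusted p = 1.39e-05). With L-NAME (2707 to 3653 CPM) and nilotinib 30 mg/kg (2424 to 3611 CPM) the groups did not overlap with control. Their log2 fold changes were 0.75 ± 0.13 (adjusted p = 6.82e-05) and 0.63 ± 0.13 (adjusted p = 0.00140). Of all genes tested, 0.999% and 0.461% were higher without overlap in those comparisons.

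Transferrin was also above the control median in all 8 mice given nilotinib 10 mg/kg (2012 to 2667 CPM) and ponatinib 3 mg/kg (1800 to 3085 CPM), and in 7 of 8 given imatinib (1592 to 2761 CPM). These differences were 0.39 ± 0.13 (adjusted p = 0.0937), 0.31 ± 0.13 (adjusted p = 0.360) and 0.33 ± 0.13 (adjusted p = 0.0796) and were not called. Imatinib became called without control mouse 22 (0.40, adjusted p = 0.0325), imatinib mouse 51 (0.39, adjusted p = 0.0308) or imatinib mouse 56 (0.38, adjusted p = 0.0494). The calls with ponatinib 10 mg/kg, nilotinib 30 mg/kg and L-NAME held in all 16 fits without 1 mouse, with log2 fold changes of 0.86 to 1.01, 0.56 to 0.69 and 0.69 to 0.82 (L-NAME without mouse 10: 0.71, adjusted p = 0.000398). With the share of reads outside genes as a covariate ponatinib 10 mg/kg (0.78, adjusted p = 0.00346) and L-NAME (0.62, adjusted p = 0.0130) and nilotinib 30 mg/kg (0.52, adjusted p = 0.0472) stayed called. Markers moved beside these values. Of 8 Kupffer cell or macrophage markers, Clec4f was called higher with L-NAME (0.69, adjusted p = 0.00884) and with nilotinib 30 mg/kg (0.64, adjusted p = 0.0282; 0.54 without control mouse 1, adjusted p = 0.0823). Of 6 hepatocyte markers, Apoa1 was higher by 0.81 and 0.58 (the latter 0.46 without nilotinib mouse 4, adjusted p = 0.136), Tat lower by -0.78 and -0.87 and Cps1 lower by -0.90 and -0.87, and Serpina1b was higher with L-NAME (0.39; 0.33 without L-NAME mouse 55, adjusted p = 0.0780). The lists of other cells gave 0 calls in both comparisons. The Kupffer list summed to 800 to 1886 CPM with L-NAME and 948 to 1712 with nilotinib 30 mg/kg, against 811 to 1554 in control mice. Their part in the Trf values was not tested. The level of Trf is itself a lower limit, since 2108 of its 3320 exon bases are shared with Gm20425, an overlapping gene on the same strand with no read in any mouse, and reads in shared exons may have been counted as ambiguous.

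**Figure D3:**
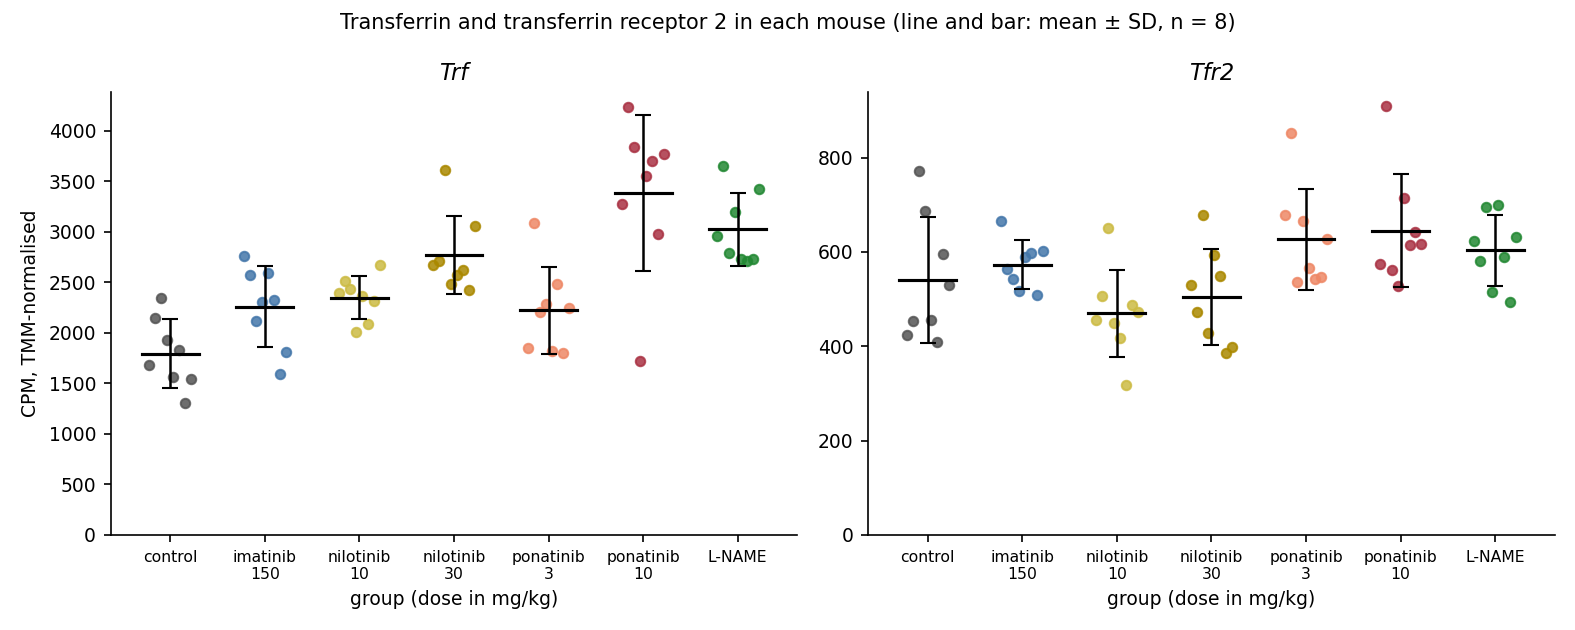
CPM of Trf (left) and Tfr2 (right) in each mouse, by group, on linear axes from 0; lines and bars are means ± SD (n = 8). All 8 nilotinib 30 mg/kg mice and all 8 L-NAME mice lie above the highest control mouse for Trf (2339 CPM), whereas the Tfr2 groups overlap throughout.

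Tfr2, the hepatocyte receptor that senses iron-loaded transferrin, was at 408 to 771 CPM in control mice with a median of 492. Its medians ran from 464 CPM with nilotinib 10 mg/kg (319 to 651) to 616 with ponatinib 10 mg/kg (529 to 910). Against control no group was called. The largest difference was 0.26 ± 0.13 with ponatinib 10 mg/kg (adjusted p = 0.189), where all 8 mice lay above the control median. Tfrc, the receptor through which cells take up transferrin iron and whose mRNA is stabilised when iron is scarce, was at 24.0 to 59.4 CPM in control mice (median 30.4). Its log2 fold changes ran from -0.35 ± 0.26 with ponatinib 3 mg/kg (adjusted p = 0.710) to 0.18 ± 0.26 with nilotinib 30 mg/kg (adjusted p = 0.805).

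Slc40a1, ferroportin, was at 117 to 264 CPM in control mice with a median of 191, and no group differed by a call. Imatinib mice ranged from 114 to 211 CPM (-0.31 ± 0.16, adjusted p = 0.217), with 1 of 8 above the control median, and ponatinib 10 mg/kg mice from 83.2 to 269 (-0.23 ± 0.16, adjusted p = 0.362). With mice weighted by library quality (limma voom) both were called lower, by -0.47 (adjusted p = 0.0128) and -0.44 (adjusted p = 0.0230). With the share of reads outside genes as a covariate they were at -0.21 (adjusted p = 0.567) and -0.08 (adjusted p = 0.885), and with the exon-length trend removed at -0.14 (adjusted p = 0.659) and -0.10 (adjusted p = 0.770). Macrophage genes moved with the imatinib value: of 8 Kupffer cell or macrophage markers, Cd5l (-1.23, adjusted p = 0.000245) and Adgre1 (-1.35, adjusted p = 0.01) were lower with imatinib, and the summed level of the list ranged from 480.4 to 1015 CPM against 811 to 1554 in control mice. Their part in the Slc40a1 value was not tested. In whole liver, fewer cells of a type and less RNA per cell cannot be told apart.

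Counted over the 10 genes, 3 were called higher with ponatinib 10 mg/kg, where 7.24% of all genes tested were called higher and 13.1% in either direction. The count was 1 with nilotinib 30 mg/kg (2.34% of all genes higher, 5.77% in either direction) and 1 with L-NAME (5.55% and 11.8%). It was 0 with imatinib (5.69% and 10.3%), nilotinib 10 mg/kg (0.468% and 1.41%) and ponatinib 3 mg/kg (0% and 0.0419%). At the study's cut-off, an unadjusted p below 0.01, the counts were 3, 1, 2, 0, 1 and 0 in the same order, where 15%, 9.35%, 14%, 12.9%, 5.97% and 3.14% of all genes passed; Hamp with L-NAME and Trf with nilotinib 10 mg/kg were added. The median log2 fold change of the 10 genes was 0.14 with ponatinib 10 mg/kg, beside -0.01 over all genes tested.

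The doses and compounds were also compared directly, in 3 pairs. Between ponatinib 10 and 3 mg/kg, Trf was higher at the higher dose by 0.61 ± 0.13 (adjusted p = 0.00878), with 6 of 8 mice above the highest low-dose mouse, and it was the 1 member called, where 1.39% of all genes were. The call held in all 16 fits without 1 mouse (0.55 to 0.70) but not with the 16 mice alone in the fit (0.62, adjusted p = 0.0700) or with the share of reads outside genes as a covariate (0.49, adjusted p = 0.259). Hamp differed between these doses by 1.16 ± 0.52 (95% confidence interval 0.12 to 2.20, adjusted p = 0.283) and Hamp2 by 0.59 ± 0.38 (-0.16 to 1.34, adjusted p = 0.506). Between nilotinib 30 and 10 mg/kg 0 members and 0 of all genes tested (0%) were called by edgeR's quasi-likelihood test, and 189 genes had an unadjusted p below 0.01. The difference of 30 from 10 mg/kg was -0.80 for Hamp (95% confidence interval -1.84 to 0.23) and 0.24 for Trf (-0.01 to 0.49). The Hamp value was -0.26 without nilotinib 10 mg/kg mouse 9 and -1.34 without nilotinib 30 mg/kg mouse 15 (adjusted p = 0.684), so its size turned on single mice.

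Ponatinib and nilotinib were compared at 10 mg/kg with the same schedule. This was the higher dose of ponatinib but the lower dose of nilotinib. The paper reports plasma exposures similar to those of patients for the low dose of each drug. Compound and exposure relative to patients therefore cannot be told apart here. Trf was higher with ponatinib by 0.53 ± 0.13 (adjusted p = 0.0159) and Tfr2 by 0.46 ± 0.13 (adjusted p = 0.0369), where 2.06% of all genes were called. For Tfr2 the mice ranged from 529 to 910 CPM with ponatinib and from 319 to 651 with nilotinib, and all 8 ponatinib mice lay above the nilotinib median. Its call was lost without nilotinib mouse 3, 25, 30 or 36, or ponatinib mouse 8, 24, 42 or 48 (log2 fold changes of 0.37 to 0.54 over the 16 fits, adjusted p up to 0.117). With the 16 mice alone in the fit neither Trf (0.53, adjusted p = 0.0984) nor Tfr2 (0.46, adjusted p = 0.159) was called. Markers of other cells differed here too: 2 of 9 sinusoidal endothelial markers were lower with ponatinib, Stab2 (-0.63, adjusted p = 0.0238) and Clec4g (-0.86, adjusted p = 0.0400), with a median over the list of -0.82 and sums of 114 to 375 CPM against 364 to 490.5. The stellate marker Lrat was lower as well (-0.71, adjusted p = 0.0367), and 0 of 5 red cell genes were called, with a median of 0.90. The part of these cells in the Trf and Tfr2 values was not tested. Hamp differed by 1.02 ± 0.52 (95% confidence interval -0.02 to 2.06, adjusted p = 0.338) and Hamp2 by 0.95 ± 0.38 (0.19 to 1.70, adjusted p = 0.182), neither called. Id1, Smad6 and Smad7 differed by -0.05, -0.26 and -0.22, and their intervals lay between -0.88 and 0.72. Imatinib was given at another dose and schedule, so its values stand beside the others without a test.

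Within groups, Hamp and the BMP-SMAD targets varied together from mouse to mouse. After the group means of log2 CPM were subtracted, Hamp and Id1 correlated over the 56 mice (Pearson r = 0.670, Spearman rho = 0.626, both permutation p = 1e-05, the smallest that 100000 permutations can give; adjusted over the 12 pairs, 0.00012). Within single groups r ran from 0.429 to 0.845, above 0 in all 7. Without the 2 mice farthest from the median of Hamp, r was 0.569 (adjusted permutation p = 0.00024). Hamp also correlated with Smad7 (r = 0.503, rho = 0.479, adjusted permutation p = 0.0009 and 0.00232) and Smad6 (r = 0.457, rho = 0.425, adjusted permutation p = 0.00118 and 0.00368), at 0.398 and 0.421 without the 2 farthest mice. The targets went together as well: Id1 and Smad7 (r = 0.587, rho = 0.635, both adjusted permutation p = 0.00018), Smad6 and Smad7 (r = 0.474, rho = 0.440, adjusted permutation p = 0.00064 and 0.0024) and, less closely, Id1 and Smad6 (r = 0.298, rho = 0.338, adjusted permutation p = 0.0227 and 0.0219).

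Hamp and Hamp2 correlated by r = 0.435 (rho = 0.422, adjusted permutation p = 0.00655 and 0.00368), with values from 0.032 to 0.881 within single groups. Hamp and Slc40a1 correlated by r = 0.471 (rho = 0.390, adjusted permutation p = 0.00290 and 0.00993), and by 0.294 without the 2 farthest mice (adjusted permutation p = 0.0385). With Bmp6 neither Hamp (r = 0.186, rho = -0.00164, adjusted permutation p = 0.221 and 0.991) nor Id1 (r = 0.273, rho = 0.157, adjusted permutation p = 0.0895 and 0.337) showed a relation past the threshold. Hamp against Tfr2 (r = -0.174, rho = -0.0548, adjusted permutation p = 0.247 and 0.766) and Tfrc (r = -0.262, rho = -0.272, adjusted permutation p = 0.0708 and 0.0675) did not pass either, although Tfrc did without the 2 farthest mice (r = -0.320, adjusted permutation p = 0.0385). In all, 8 of the 12 pairs had an adjusted p below 0.05. Both genes of a pair come from the same library, so shared features of a library enter every r.

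**Figure D4:**
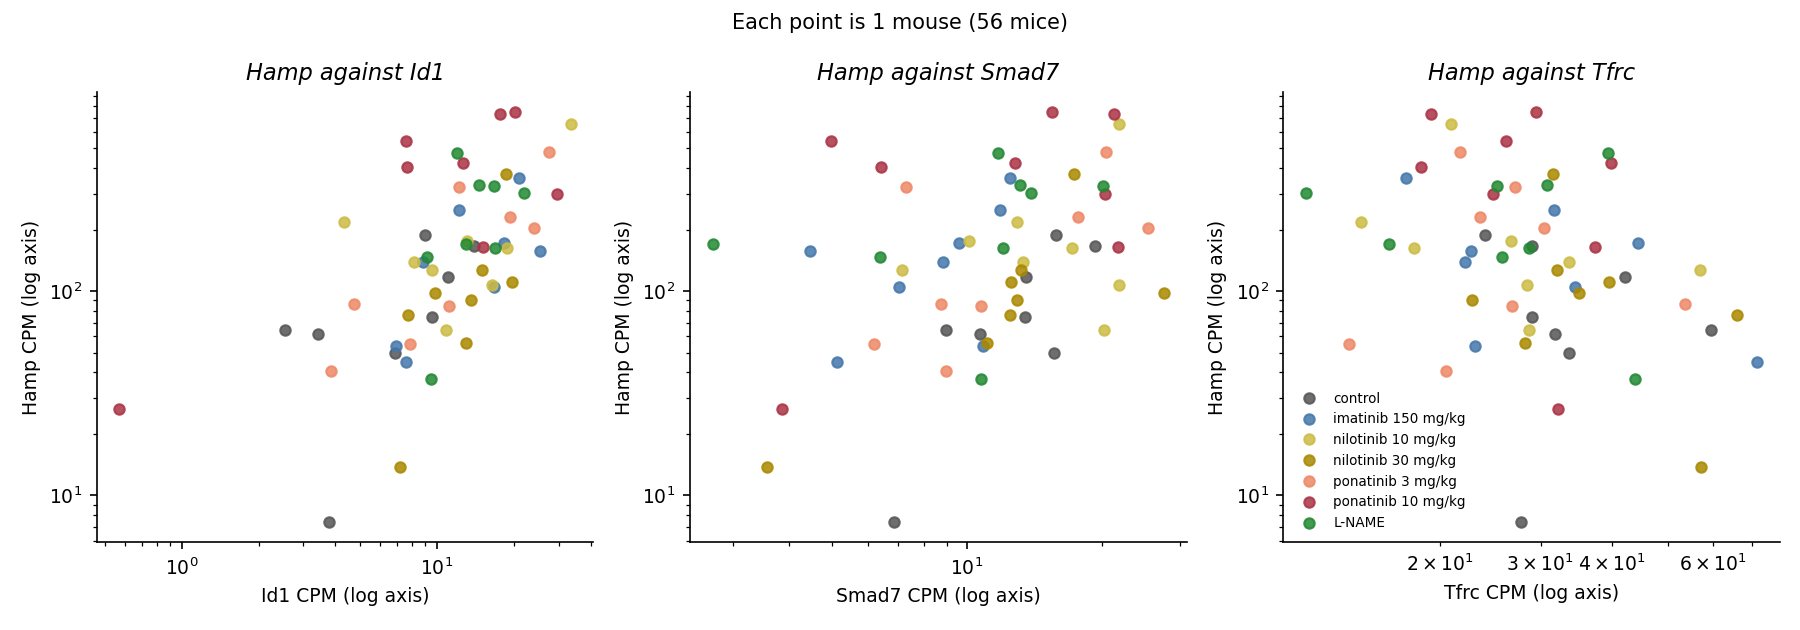
CPM of Hamp against Id1, Smad7 and Tfrc in the 56 mice, on log axes, with colours for the 7 groups. Hamp is higher where Id1 is higher across mice of every group (r = 0.670 after group means were removed), less tightly with Smad7 (0.503), and runs slightly downward with Tfrc (-0.262, not past the threshold).

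Ponatinib 10 mg/kg mouse 35 lay at the low end of this relation, with 0.570 CPM of Id1, 4.42 of Atoh8 and 26.4 of Hamp, yet 3702 CPM of Trf. Ranked over the 10310 genes of at least 5 CPM by Pearson r with each member, the genes most like Hamp were Id1 (r = 0.670), Id3 (0.649) and Atoh8 (0.572), all BMP-SMAD target genes. For Smad7 they were Ntn4 (0.604), Atoh8 (0.60) and Id1 (0.587). Hamp2 had other neighbours, Hsd11b1 (0.686), Ces2a (0.672) and Gstt1 (0.669), enzymes of steroid, ester and glutathione metabolism. Tfr2 went with the secreted hepatocyte proteins Vtn (0.903), Kng2 (0.855) and Fgl1 (0.846), and Trf with Nedd8 (0.697), Rpl31-ps8 (0.691) and Edf1 (0.689). Slc40a1 went with Ifngr2 (0.691), Adgre1 (0.688), a macrophage surface receptor, and Vamp3 (0.661). These values are over 56 mice with group means removed and carry no test.

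Of the 80 other genes of the pathway in 7 lists, 75 were tested and 19 were called in at least 1 comparison with control, where 22% of all genes tested were. After ponatinib 10 mg/kg 4 rose and 5 fell, where 5.87% of all genes fell. After nilotinib 30 mg/kg 3 rose and 5 fell (3.43% of all genes), after L-NAME 1 rose and 7 fell (6.24%), and after imatinib 2 rose and 6 fell (4.58%). After nilotinib 10 mg/kg 0 rose and 3 fell (0.943%), and after ponatinib 3 mg/kg 0 were called (0.0419%). By list, 1 of 11 tested BMP ligands and antagonists, 2 of 13 receptors and regulators, 1 of 6 SMADs and SMURFs, 0 of 4 other BMP-SMAD targets, 6 of 11 genes of the interleukin-6 to STAT3 arm, 4 of 19 of iron uptake, storage and export, and 5 of 11 of iron sensing and haem or iron-sulfur synthesis were called at least once. Of the 6 in the interleukin-6 arm, Saa1, Saa2, Orm1, Il6st and Stat3 lost their calls in at least 1 fit that left out a mouse. Jak1 kept its call with imatinib in all 16 fits and with L-NAME in 8 of 16. The median log2 fold change over the 75 was -0.14 with ponatinib 10 mg/kg and -0.12 with imatinib, beside -0.01 and -0.02 over all genes. For these genes no values are given with the share of reads outside genes as a covariate or with the length trend removed. Over all genes, that covariate left 13 calls against 202 with nilotinib 10 mg/kg and 96 against 826 with nilotinib 30 mg/kg. With imatinib it left 653 against 1471.

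Among receptors and regulators of the BMP arm, Furin, the protease that cleaves both the BMP precursors and pro-hepcidin and that releases soluble hemojuvelin, was lower in 4 comparisons. It ranged from 260 to 343 CPM in control mice, from 166 to 227 with nilotinib 10 mg/kg, from 148 to 232 with nilotinib 30 mg/kg and from 148 to 222 with L-NAME, without overlap in these groups. Of all genes tested, 0.503%, 1.27% and 1.57% were lower without overlap in those comparisons. The log2 fold changes were -0.66, -0.68 and -0.68 (adjusted p = 0.00742, 0.000970 and 0.000353), and with ponatinib 10 mg/kg -0.47 (adjusted p = 0.0101), where mouse 18 alone, at 384 CPM, lay above all control mice. Chrd, a secreted BMP antagonist, rose with ponatinib 10 mg/kg from 9.05 ± 1.93 to 17.7 ± 6.61 CPM (0.98 ± 0.25, adjusted p = 0.00494). Hjv, hemojuvelin, rose with nilotinib 30 mg/kg (0.60, adjusted p = 0.0443), a call kept in 6 of 16 fits without 1 mouse (0.49 without nilotinib mouse 20, adjusted p = 0.139). Smurf2, a ubiquitin ligase of SMADs, fell with L-NAME (-0.38, adjusted p = 0.0361), kept in 7 of 16 fits (-0.35 without L-NAME mouse 32, adjusted p = 0.0746). The other BMP-SMAD targets listed, Id2, Id3, Id4 and Atoh8, gave 0 calls of 4 in every comparison with control, where 0.0419% to 13.1% of all genes were called. Their levels were not level with control throughout. The median log2 fold change of the list was 0.66 with nilotinib 30 mg/kg, 0.45 with ponatinib 10 mg/kg and 0.41 with nilotinib 10 mg/kg. Over all genes it was 0.03, -0.01 and 0.01. The list median was 0.27 with imatinib and 0.05 with ponatinib 3 mg/kg.

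In the interleukin-6 to STAT3 arm, ponatinib calls rested on 1 animal. At 10 mg/kg Saa1, Saa2 and Orm1, acute-phase genes, were called higher by 3.77, 4.84 and 1.08. In mouse 8 they stood at 11884, 13377 and 3356 CPM, while the other 7 mice had 9.94 to 111 CPM of Saa1 against 59.4 to 208 in control mice. Without mouse 8 the differences were -1.17, -0.88 and 0.41, and none was called (adjusted p = 0.151, 0.381 and 0.198). In that fit Hamp was at 2.21 (adjusted p = 0.00375), Hamp2 at 1.76 (adjusted p = 0.000498) and Trf at 0.86 (adjusted p = 1.40e-05). Ponatinib 3 mg/kg mouse 13 also stood high, at 1591 CPM of Saa1, 1404 of Saa2 and 1771 of Orm1. The medians of its group were 54.9, 29.3 and 564 CPM, and none of these genes was called at that dose. With imatinib Il6st, Jak1 and Stat3, the receptor subunit, kinase and transcription factor of this arm, were lower by -0.41, -0.51 and -0.51 (adjusted p = 0.0241, 0.00191 and 0.0470). Jak1 kept its call in all 16 fits, Il6st in 11 and Stat3 in 5; without control mouse 46 Il6st was at -0.32 (adjusted p = 0.0899) and without control mouse 22 Stat3 at -0.42 (adjusted p = 0.116). Jak1 was also lower with L-NAME (-0.34, adjusted p = 0.0350), at -0.28 without control mouse 46 (adjusted p = 0.117).

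Among genes of iron uptake, storage and export, Lrp1, a scavenger receptor that takes up haem bound to hemopexin among many other ligands, was lower in 5 comparisons, by -0.51 to -0.69. It ranged from 794 to 1516 CPM in control mice and from 499 to 952 with imatinib. The call with nilotinib 10 mg/kg was kept in 13 of 16 fits and was -0.46 without control mouse 46 (adjusted p = 0.102). Steap3, the endosomal reductase that frees iron taken up with transferrin, fell with ponatinib 10 mg/kg from 24.0 to 35.3 CPM in control mice to 10.2 to 21.2, without overlap (-0.84 ± 0.20, adjusted p = 0.00246), as did 0.503% of all genes tested. Its relative Steap4 fell with imatinib without overlap, from 148 to 293 CPM down to 57.5 to 126 (-1.12, adjusted p = 0.0294; -1.03 without imatinib mouse 16, adjusted p = 0.0638), where 0.433% of all genes were lower without overlap. Fth1, the ferritin heavy chain, rose with nilotinib 30 mg/kg by 0.33 ± 0.08 (adjusted p = 0.0109) and with imatinib by 0.27 ± 0.08 (adjusted p = 0.0286), the latter kept in 8 of 16 fits (0.24 without control mouse 46, adjusted p = 0.0799).

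Among genes of iron sensing and of haem and iron-sulfur synthesis, Aco1, which encodes the cytosolic aconitase that doubles as iron regulatory protein, fell in 5 comparisons. Control mice ranged from 271 to 351 CPM, and mice given nilotinib 10 mg/kg (167 to 232), nilotinib 30 mg/kg (165 to 250.3), ponatinib 10 mg/kg (150 to 263) and L-NAME (155 to 209) did not overlap with them, beside the shares of all genes given for Furin and Steap3. The log2 fold change was largest with L-NAME (-0.71 ± 0.11, adjusted p = 4.36e-05; -0.69 without L-NAME mouse 10, adjusted p = 0.000201) and smallest with imatinib (-0.38, adjusted p = 0.0230; -0.31 without imatinib mouse 27, adjusted p = 0.0695). Fech, ferrochelatase, the last enzyme of haem synthesis, fell with nilotinib 30 mg/kg, ponatinib 10 mg/kg and L-NAME by -0.37, -0.33 and -0.35. Iscu, the scaffold of iron-sulfur cluster assembly, rose with imatinib, nilotinib 30 mg/kg and L-NAME by 0.51, 0.47 and 0.60, and the L-NAME mice (41.4 to 56.4 CPM) did not overlap with control mice (26.0 to 40.7), beside 0.999% of all genes that were higher without overlap. The nilotinib call was lost without control mouse 33 (0.43, adjusted p = 0.0572). Epas1 fell with nilotinib 30 mg/kg (-0.44; -0.39 without nilotinib mouse 49, adjusted p = 0.0552) and Hif1a with L-NAME (-0.55, adjusted p = 0.0171); they encode the hypoxia-inducible factor subunits.

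**Figure D5:**
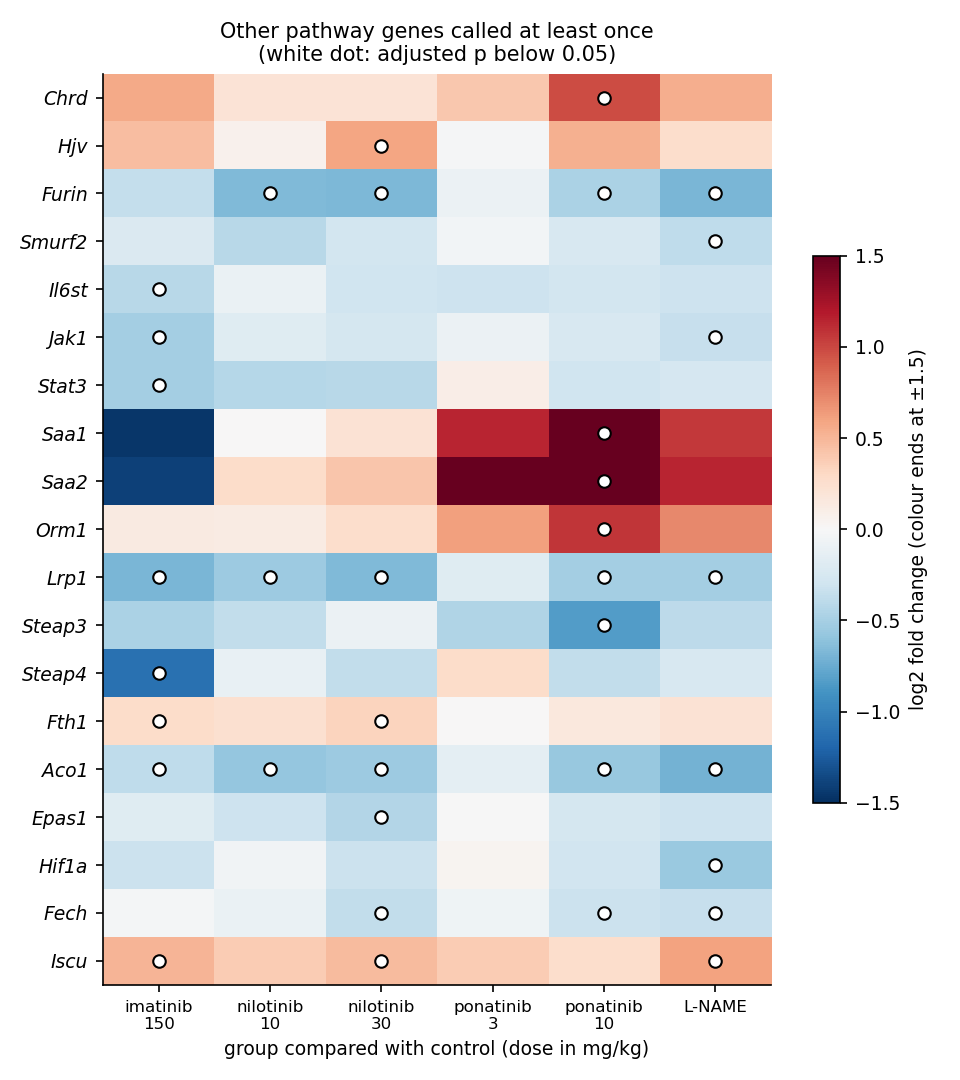
Log2 fold change against control (colour, ending at 1.5 either way) of the 19 other pathway genes called at least once, for the 6 treated groups; white dots mark an adjusted p below 0.05. Furin, Lrp1, Aco1 and Fech run blue in rows of dots, Iscu and Fth1 run red, and the dark red of Saa1 and Saa2 with ponatinib 10 mg/kg comes from mouse 8.

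Markers of other cells were read beside the results with ponatinib 10 mg/kg. Of the 9 sinusoidal endothelial markers, the cells that make Bmp6, 0 were called and the summed level ranged from 114 to 375 CPM against 176 to 601 in control mice. Of 5 tested genes of erythroid cells or blood, 4 were called higher (Hba-a1, Hba-a2, Hbb-bs and Hbb-bt, by 1.15 to 1.24) and Alas2 was not. The list's sum ranged from 162 to 1128 CPM against 149 to 420.1. Hbb-bs was at 0.91 without ponatinib mouse 35 (adjusted p = 0.05) and Hbb-bt at 0.95 (adjusted p = 0.0866). Hbb-bs also stood at 1.13 with ponatinib 3 mg/kg (adjusted p = 0.158) and at 0.98 with nilotinib 30 mg/kg (adjusted p = 0.0520). Hamp and Hamp2 summed stood at 1.02 (adjusted p = 0.288) and 0.22 (adjusted p = 0.826) in those comparisons, also not called. Of 8 Kupffer cell or macrophage markers Marco (2.32, adjusted p = 0.0227) and Clec4f (0.61, adjusted p = 0.0216) were higher, lost without ponatinib mouse 8 (1.86, adjusted p = 0.0693) and mouse 24 (0.35, adjusted p = 0.180). The part of blood and macrophage RNA in the hepcidin and transferrin values was not tested. Of the stellate, lymphocyte and proliferation lists, Ecm1 and Ighm were called higher and Mki67 and Top2a lower with ponatinib 10 mg/kg. Those calls were lost without ponatinib mouse 24 (Ecm1 0.46, adjusted p = 0.0845), ponatinib mouse 8 (Ighm 0.65, adjusted p = 0.124) and control mouse 12 (Mki67 -1.10, adjusted p = 0.153; Top2a -1.74, adjusted p = 0.0533). The cholangiocyte and neutrophil lists gave 0 calls.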

How the data were processed

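Liver poly(A) mRNA libraries (NEBNext Ultra, NextSeq 500) of 8 mice per group were aligned by the authors to GRCm38 with TopHat2 2.0.14 and Bowtie2 2.1.0, handled with SAMtools 0.1.18 and counted per gene with HTSeq 0.6.1p1, per the submitters' processing notes. The deposited values are raw counts of uniquely aligned reads per Ensembl gene; the annotation release and strand setting are not given in the sources used here. Between 7.55 and 16.8% of uniquely aligned reads lay outside genes and 2.01 to 3.65% were ambiguous, and these were left out of library sizes. Symbols came from GENCODE vM21, for 44671 of 45513 identifiers.

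Counts were fitted with edgeR 4.0.16 (TMM, filterByExpr, glmQLFit, glmQLFTest) in R 4.3.3, in 1 model of 56 mice and 7 groups, with contrasts against control and 3 direct contrasts. The cut-off in the study's methods is an unadjusted p below 0.01. Alternatives were RLE or no composition factors, no low-count filter, DESeq2 1.42.0, limma 3.58.1 (voom with quality weights), fewer groups in the fit, a covariate, other thresholds, summed hepcidin paralogs and leaving out each mouse. The scripts were tested on simulated data. Correlations used 100000 permutations within groups (Python 3.11.15). All 10 members were described in every comparison; pathway genes were named if called in at least 1 comparison with control, and the 3 genes most like each member by Pearson r among those of at least 5 CPM. The members, lists and rules were chosen with earlier results of these data known. Lower counts carry more counting error, and no p was adjusted over the members alone.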

Additional observations from a re-analysis of the deposited data

Results flagged for a closer look

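Gaps between the highest or lowest mouse and the rest of its group of 8 were large, by Dixon's test at 95%, for 9 of 70 combinations of member and group. Chance gives about 1 in 20 for normally distributed values. The gaps were taken on CPM without a log scale, and all 9 lay at the highest mouse, so that rate need not hold here. Hamp was far above the rest of its group in nilotinib 10 mg/kg mouse 9 (659 CPM, group median 150) and nilotinib 30 mg/kg mouse 15 (375 CPM, median 94.1), and Hamp2 in nilotinib 30 mg/kg mouse 44 (361 CPM, median 162) and ponatinib 3 mg/kg mouse 41 (552 CPM, median 300.2). Tfrc stood high in nilotinib 10 mg/kg mouse 36 (56.9 CPM, median 27.5) and ponatinib 3 mg/kg mouse 23 (53.5 CPM, median 25.1). The remaining cases were Bmp6 in imatinib mouse 16 (4.98 CPM, median 1.78), Tfr2 in ponatinib 3 mg/kg mouse 13 (852 CPM, median 597) and Slc40a1 in L-NAME mouse 45 (246 CPM, median 179).

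By the same test 3 libraries differed in reads on genes: L-NAME mouse 10 (97473341), ponatinib 3 mg/kg mouse 13 (15789978) and nilotinib 10 mg/kg mouse 3 (5342379, the lowest of all). The share of reads outside genes was far above the group in L-NAME mouse 10 (16.8%) and imatinib mouse 21 (14.1%). Trf differed between the ponatinib doses, with a log2 fold change of 0.61 for 10 against 3 mg/kg (adjusted p = 0.00878).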

How the results depend on the processing

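No paired analysis was possible because the mouse numbers in the labels run over all samples and link no mice between groups. No member changed direction in a called comparison under any alternative. Ponatinib 10 mg/kg kept 3 called members (Hamp, Hamp2, Trf) and nilotinib 30 mg/kg 1 (Trf) under RLE or library-size scaling, no filter, DESeq2, and without any 1 mouse; with the covariate Hamp2 was lost (0.93, adjusted p = 0.304). The remaining counts changed as follows; the cause was not tested. Library size alone gave 1 member (Trf) with nilotinib 10 mg/kg and 1 between ponatinib and nilotinib at 10 mg/kg, as did no low-count filter and the 48 mice without L-NAME for the latter. DESeq2 gave 1 with imatinib, 1 with nilotinib 10 mg/kg (both Trf) and 2 with L-NAME (Hamp, Trf). The weighted limma fit gave 4 with ponatinib 10 mg/kg (Slc40a1 lower was added), 2 with imatinib (Trf, Slc40a1 lower) and, from Trf alone, 1 in each of the low-dose groups of nilotinib and ponatinib. With only the compared groups in the fit there was 1 with imatinib (Hamp2), 3 with L-NAME (Hamp, Id1, Trf), 0 between the ponatinib doses and 0 between ponatinib and nilotinib. With the share of reads outside genes as a covariate there were 0 between the ponatinib doses and 2 over any difference among the groups (Tfr2, Trf). An unadjusted p below 0.01 gave 1 with nilotinib 10 mg/kg and 2 with L-NAME; an adjusted p below 0.01 gave 0 between ponatinib and nilotinib and 1 over any difference (Trf). Without 1 mouse at a time the counts ran from 0 to 1 with imatinib, from 1 to 2 with L-NAME and from 1 to 2 between ponatinib and nilotinib. Over all genes, the covariate left 369 calls with ponatinib 10 mg/kg against 1877, and 258 against 1688 with L-NAME; removal of the length trend, chosen after seeing the data, left 1511 and 1231. The longest transcript in place of all exons moved the control levels per kilobase of Trf (697), Tfr2 (176) and Slc40a1 (49.3). Depth limits Bmp6 most: 8 mice had no read of it.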
